A study of Mus musculus with 2 samples.

Results

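Metallothioneins are small, cysteine-rich proteins that bind zinc and copper and buffer the free level of these metals in the cell. Mt1 and Mt2 are made in most tissues and are switched on by zinc and other metals, through the factor MTF1 and metal response elements in their promoters, and also by glucocorticoids and by inflammatory cytokines that act through STAT3. Mt3 is the form typical of the nervous system, found in astrocytes and ependymal cells among others, and responds little to metals. The transcripts of Mt1, Mt2 and Mt3 were measured in the ependymal cells that line the central canal of the spinal cord, and in the endothelial and mural cells of its vessels. They are 3 of the 24071 genes listed for the series. They were taken as a family by name, with earlier results of these data known, and a further member of the family, Mt4, was not analysed here.

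The cells came from spinal cords of C57BL/6j mice, 10 to 12 weeks old, with Cre in both copies of Clec9a (Clec9a cre/cre), the gene of the dendritic cell receptor DNGR-1, and a tdTomato reporter behind a stop cassette in both copies of R26 (R26 LSLtdTomato/LSLtdTomato). Perfused cords were dissociated, depleted of myelin and sorted for live, CD45- CD133+ cells, and cells with the reporter (DNGR-1 traced) and without it (non-traced) went into 1 library each. The reporter marks a cell whose lineage once expressed the Cre, so a non-traced cell may also be one in which recombination did not occur. The number of animals behind each library is not given in the sources used here, and with 1 library per group there are no replicates: differences are given by their size, and all intervals are at the 95% level and cover counting error only.

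The non-traced library held 25411 cells and 233318692 UMIs (unique molecular identifiers, each a counted transcript), with a median of 7218 per cell. The traced library held 4825 cells and 46530507 UMIs, with a median of 8566 per cell. Cells were clustered without the metallothionein genes and named by fixed markers. Ependymal-like cells numbered 1158 in the non-traced and 4740 in the traced library, and each of their clusters had all 10 ependymal markers. Endothelial-like cells numbered 21099 and 47, and pericyte-like cells 202 and 0. Cells with the markers of several classes were kept apart: 701 non-traced cells had ependymal and endothelial markers, 1685 endothelial and pericyte markers, 332 smooth muscle, pericyte and endothelial markers, and 88 astrocyte and endothelial markers. The libraries shared 42 cell barcodes.

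The 3 genes lie in tandem on the plus strand of chromosome 8 (GRCm38, GENCODE vM21), in the order Mt4, Mt3, Mt2, Mt1, and the 4 genes together span 43.1 kb. Mt3 is at chr8:94152607-94154146, Mt2 at chr8:94172664-94173568 and Mt1 at chr8:94179082-94180327, each with up to 3 exons. No stretch of 50 bases in their annotated transcripts occurs in a transcript of another gene, so reads of that length or more can be told apart from those of the other members. The promoters are shown because metals act on Mt1 and Mt2 through such elements. Each line gives the 250 bases before the start of the gene in RefSeq (build GRCm38.p6, plus strand), with the core of the metal response element in capitals, searched on both strands as TGCACNC and TGCGCNC. They are Mt1 at chr8:94178839-94179088, Mt2 at chr8:94172368-94172617 and Mt3 at chr8:94152357-94152606.
Mt1: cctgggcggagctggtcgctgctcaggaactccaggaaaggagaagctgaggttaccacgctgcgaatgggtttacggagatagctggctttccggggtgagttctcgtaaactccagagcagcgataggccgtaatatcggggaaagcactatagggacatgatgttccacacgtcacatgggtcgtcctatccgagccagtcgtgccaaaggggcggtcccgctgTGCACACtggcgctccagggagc
Mt2: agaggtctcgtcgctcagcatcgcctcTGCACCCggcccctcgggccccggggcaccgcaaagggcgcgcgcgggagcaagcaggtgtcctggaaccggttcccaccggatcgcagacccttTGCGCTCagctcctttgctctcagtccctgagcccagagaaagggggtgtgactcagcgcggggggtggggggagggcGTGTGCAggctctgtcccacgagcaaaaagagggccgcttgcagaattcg
Mt3: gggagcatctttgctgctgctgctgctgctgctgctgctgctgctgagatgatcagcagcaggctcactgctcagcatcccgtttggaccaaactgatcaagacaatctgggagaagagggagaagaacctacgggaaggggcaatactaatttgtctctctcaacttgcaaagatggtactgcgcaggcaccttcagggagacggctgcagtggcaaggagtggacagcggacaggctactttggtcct
The Mt1 stretch held 1 match, from -23 to -17 counted back from the start, the Mt2 stretch 3 matches, from -223 to -217, from -128 to -122 and, on the minus strand, from -50 to -44, and the Mt3 stretch 0. No matches overlapped. The counts depend on the window: with 50 bases past the start added they were 3 for Mt1, 4 for Mt2 and 1 for Mt3. The RefSeq and GENCODE starts also differ: the Mt1 stretch runs past the GENCODE start, and the Mt2 stretch ends short of it. Among 32851 promoters of the same length, 7032 (21.4%) held at least 1 match and 415 (1.26%) at least 3. A match is a run of letters, not a measured binding site.

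Ependymal-like cells had the highest levels of all 3 genes among the named classes, and Mt3, the nervous system form, was the most abundant of them. As CPM of the summed cells (the usual scaling of counts by the total UMIs), Mt3 was 14278 CPM (interval 14198 to 14358) in the non-traced and 13366 CPM (13333 to 13400) in the traced library. Mt1 was 8637 CPM (8575 to 8699) and 7845 CPM (7819 to 7870), and Mt2 2013 CPM (1983 to 2043) and 1710 CPM (1698 to 1722). The order Mt3, Mt1, Mt2 held in both libraries.

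The transcripts were spread over nearly all ependymal-like cells. With every cell thinned to 1000 UMIs, so that cells of unequal depth can be compared, Mt3 was found in 100% of the non-traced and 99.85% of the traced cells, and Mt1 in 99.74% and 99.26%. Mt2, the least abundant, was found in 79.53% and 78% of them, and without thinning in 99.57% and 99.45%. The level of Mt1 in single cells ran from 4342 CPM at the 10th percentile of traced cells through a median of 7368 to 11966 at the 90th. Mt3 ran from 8520 through 13215 to 18359 CPM in the same cells.

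The traced and non-traced ependymal-like cells differed little. On the scale of log2(CPM + 1), traced minus non-traced, Mt1 differed by -0.14 (-0.15 to -0.13), Mt2 by -0.23 (-0.26 to -0.21) and Mt3 by -0.10 (-0.10 to -0.09). None of the 3 differed by 2-fold, the size used for every count below. Of 9567 genes with at least 10 CPM in either sum, 205 (2.14%) did. The intervals leave out 0, but the spread between animals was not measured, and for Mt1 and Mt3 the sign turned when clusters were named over both libraries together (0.03 and 0.08). The non-traced ependymal-like cells also had more endothelial marker transcripts (a sum of 353.5 CPM over 8 markers, against 32.21 CPM in the traced, with none of the 8 at 0 in either), and their part in these differences was not tested. At the ratio seen in endothelial-like cells, those transcripts would bring 0.276% of the Mt1 in the non-traced cells.

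The subtypes of ependymal cells separated mostly by library. Leaving out 55 shallow cells described below, the highest group exceeded the lowest 1.49 times in Mt1, 2.5 times in Mt2 and 1.5 times in Mt3. For Mt1 and Mt3 the highest group was non-traced and the lowest traced, so these ratios mix subtype with library. Among the traced groups Mt1 ran from 6244 to 8724 CPM and Mt3 from 10031 to 14438 CPM. Clustered on their own, again without the metallothioneins, ependymal-like cells formed 7 groups of at least 50 cells of a library, which are called by their leading genes. The group led by Ly6c1, Flt1 and Cldn5, which are endothelial genes, held 716 non-traced cells and had the highest Mt1 and Mt3, at 9301 CPM (9218 to 9384) and 15067 CPM (14962 to 15172). The largest group of traced cells, of 1896 cells, was led by Gm42418, Rn18s-rs5, Mir6236 and Gm13830. It is called the Agr3 group after the gene that came next, Agr3, with Lin7a lower in its list. The next largest, of 1623 cells, was led by Socs3, Atf3 and Fos. It is called the immediate early group after Atf3 and Fos, while Socs3 is on the STAT3 list used below. Another large group was led by Sntn and Sncg (853 cells). A group of 100 traced cells was led by Mki67 and other genes of dividing cells.

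Mt1 was 8724 CPM in the immediate early group, 7629 in the Sntn group, 7486 in the dividing group and 7456 in the Agr3 group, where the dividing group overlapped with both the Sntn and the Agr3 group in its interval. Mt2 was 2341 CPM (2259 to 2426) in the dividing group and 2331 CPM (2290 to 2373) in the Ly6c1 group, 1981 in the immediate early, 1647 in the Agr3 and 1485 in the Sntn group. Mt3 had another order: 14438 CPM in the Agr3 and 14322 in the immediate early group, but 10597 in the Sntn group and 10031 in the dividing group. The traced Sntn cells thus had a Mt3 level 1.36 times lower than the Agr3 cells of the same library (a log2 difference of -0.45, -0.46 to -0.44), while Mt1 differed by 0.03. Between these groups 1.89% of 9409 genes differed by 2-fold, and no metallothionein was among them. The immediate early group exceeded the Agr3 group by 0.23 in Mt1 and 0.27 in Mt2 and differed by -0.01 in Mt3, with 1.01% of 9285 genes past 2-fold and none of the 3 among them. The summed level of the 12 immediate early genes was 14692 CPM in the first and 1021 CPM in the second. In the Sntn group, at 0.03 in Mt1 and -0.15 in Mt2 against the Agr3 group, this sum was 5208 CPM. In the dividing group it was 5919 CPM, and the part of these genes in the differences was not tested.

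The group led by Ucma was the only one with at least 50 cells from each library, 368 non-traced and 197 traced. The shallow cells left out, it had the lowest Mt2 of these groups in the traced library. In the non-traced library the Ly6c1 group was the only other one of at least 50 cells. There Mt2 was 1292 CPM (1249 to 1335) in the Ucma group against 2331 CPM in the Ly6c1 group. This was a log2 difference of -0.85 (-0.91 to -0.80), with Mt1 at -0.36 and Mt3 at -0.20. In the traced library Mt2 was 936.4 CPM (894 to 980) against 1647 CPM in the Agr3 group, a difference of -0.81 (-0.88 to -0.75), with Mt1 at -0.26 and Mt3 at -0.24. Mt2 was thus 1.81 and 1.76 times lower, short of 2-fold, and 4.74% of 9682 and 5.99% of 9692 genes passed that size in these comparisons. Against the dividing group, at 2341 CPM, the Mt2 of the traced Ucma cells was 2.5 times lower. That sets the lowest against the highest traced group, picked after the values were seen, and the share of all genes past 2-fold was not counted for it. Within the Ucma group the traced cells were again below the non-traced, by -0.22 in Mt1, -0.46 (-0.54 to -0.38) in Mt2 and -0.10 in Mt3, with 2.65% of 9764 genes past 2-fold. The endothelial marker sum was 293.1 CPM in the non-traced and 8.064 CPM in the traced cells of this group. The immediate early sum was 6974 CPM in its traced cells, against 1021 CPM in the Agr3 group. The 55 traced cells with a median of only 1669 UMIs had 2474 CPM of Mt1, 836.4 of Mt2 and 5353 of Mt3.

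**Figure D1:**
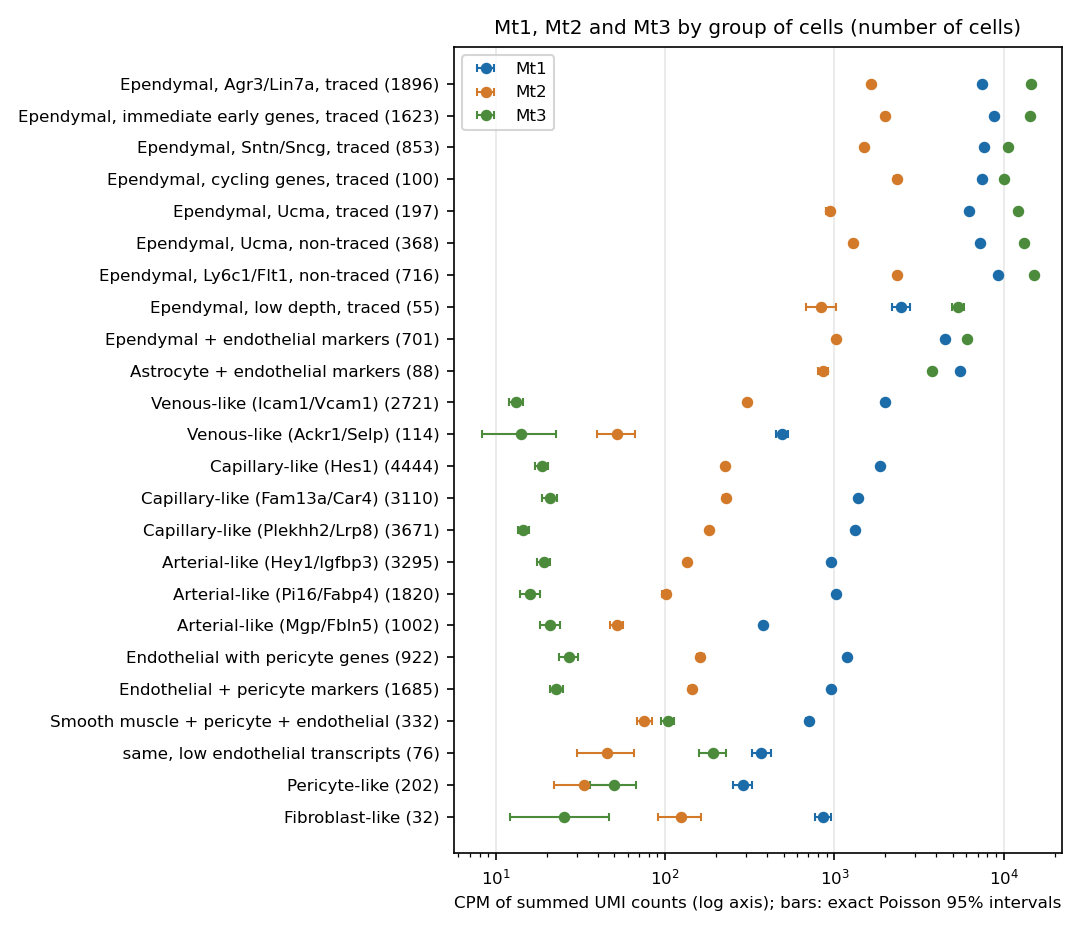
Level of Mt1 (blue), Mt2 (orange) and Mt3 (green) in each group of cells, in CPM of the summed counts on a log axis, with exact Poisson 95% intervals and the number of cells in parentheses. Ependymal groups lie to the right of the endothelial groups of the non-traced library for all 3 genes. In those endothelial groups Mt1 stays between 379.4 and 1991 CPM and Mt3 between 13.16 and 26.88 CPM.

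Endothelial-like cells expressed Mt1 and Mt2 at lower levels and gave hardly any Mt3. In the non-traced library Mt1 was 1381 CPM (1376 to 1386) and Mt2 192.1 CPM (190 to 194), which is 6.25 and 10.4 times lower than in ependymal-like cells (log2 differences of -2.64 and -3.38). Mt3 was 17.25 CPM (16.7 to 17.9), which is 782 times lower on the same scale (-9.61). All 3 were past 2-fold in the lower direction, as were 27.1% of the 10497 genes tested in this comparison. Thinned to 1000 UMIs, 54.76% of endothelial-like cells had a Mt1 UMI (54.1 to 55.4), 16% a Mt2 UMI and 1.69% a Mt3 UMI. Without thinning these shares were 87.27%, 58.85% and 12.42%.

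Mt3 in endothelial-like cells was set beside ependymal markers, which, Rarres2 aside, endothelial cells are not known to make, and its origin was not tested. Its level there was 0.121% (0.117 to 0.125) of the ependymal level in the same library. For the 10 ependymal markers, which include the cilia genes Ccdc153, Tmem212, Rsph1 and Dnah12 and the ciliogenesis factor Foxj1, the same figure ran from 0.0739% for Pifo through a median of 0.125% to 0.265% for Cfap126. Mt3 thus lay within the range of the markers. Mt1 at 16% (15.9 to 16.1) and Mt2 at 9.55% (9.37 to 9.72) lay far above the highest of them. Mt3 UMIs numbered 1.08 (1.03 to 1.13) per ependymal marker UMI in endothelial-like cells and 1.38 (1.36 to 1.39) in ependymal-like cells. Rarres2, which pericyte-like cells also had, gave 966 of the 2974 marker UMIs in the former and 19820 of 89413 in the latter. If all the Mt3 had come with ependymal RNA, in the proportions of the ependymal-like cells, 10.44 CPM of Mt1 and 2.432 CPM of Mt2 would have come with it, 0.756% and 1.27% of their levels in endothelial-like cells.

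**Figure D2:**
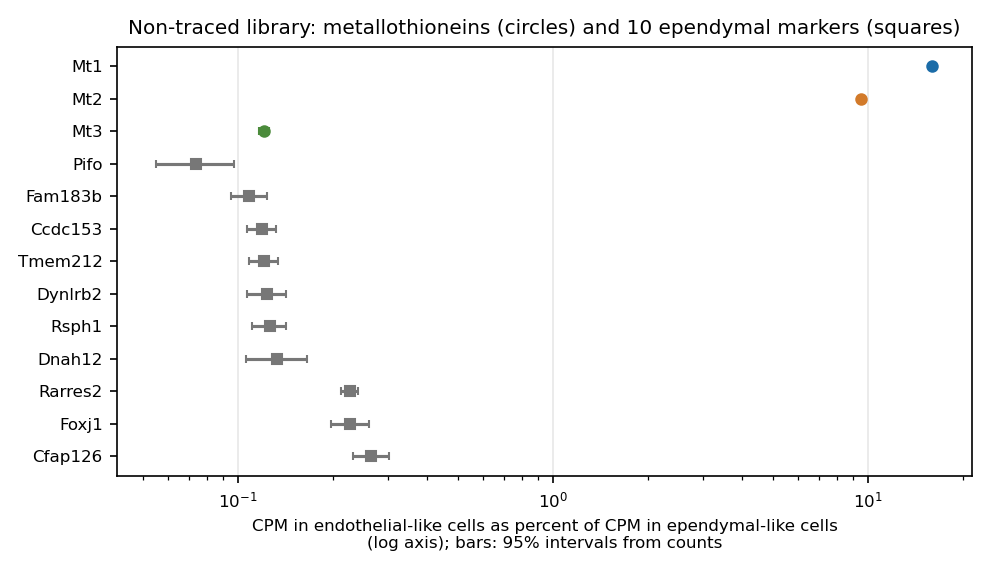
Level in endothelial-like cells as a percentage of the level in ependymal-like cells of the non-traced library, on a log axis, for the metallothioneins (circles) and 10 ependymal markers (squares), with 95% intervals from the counts. Mt3 sits among the markers at 0.121%, and Mt1 and Mt2 lie far to the right at 16% and 9.55%.

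Mt3 also moved with the depth of the endothelial-like cells as the markers did. With the cells in 4 equal parts by depth, from the shallowest to the deepest, with median depths of 4746 and 14310 UMIs, Mt3 went from 23.98 CPM (22.1 to 26) to 14.36 CPM (13.6 to 15.2), and the ependymal marker sum from 21.65 CPM (19.9 to 23.6) to 14.1 CPM (13.3 to 14.9). Per cell, Mt3 went from 0.1115 to 0.2275 UMIs. Mt1 went from 1547 to 1327 CPM and Mt2 from 209.4 to 189.6 CPM over the same parts. In the 18558 endothelial-like cells without any ependymal marker UMI, Mt3 was 15.51 CPM, in the 2315 with 1 it was 15.81 CPM, and in the 226 with 2 or more it was 130 CPM (117 to 144). Mt1 was 1386, 1335 and 1505 CPM in these cells. In 8 of the 21099 cells 10 or more Mt3 UMIs were counted, and these held 7.18% of all Mt3 UMIs of the class.

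**Figure D3:**
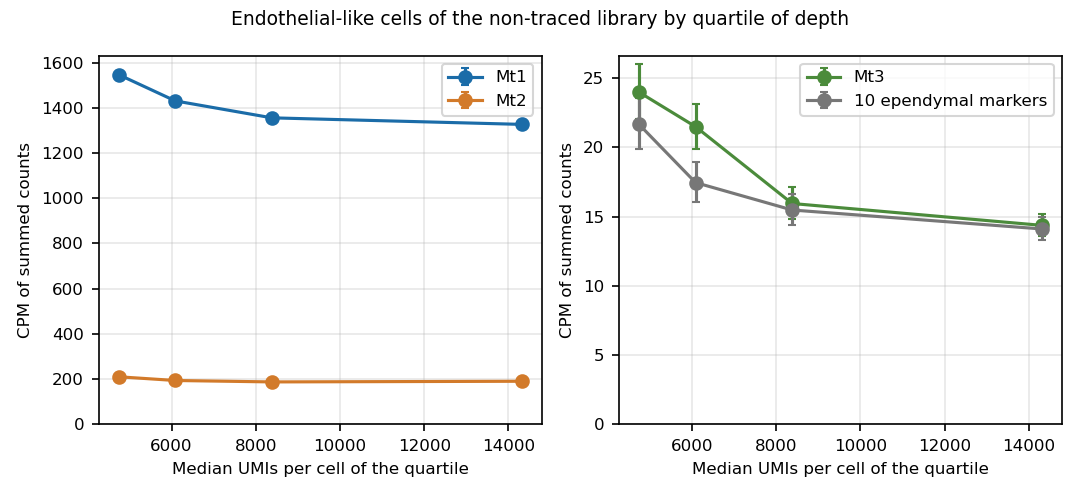
Endothelial-like cells of the non-traced library in 4 equal parts by depth: the median UMIs per cell of each part against the level of Mt1 and Mt2 (left) and of Mt3 and the sum of 10 ependymal markers (right), in CPM with 95% intervals. Mt3 and the marker sum go down together, from 23.98 and 21.65 to 14.36 and 14.1 CPM, and Mt1 goes from 1547 to 1327 CPM.

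The traced library had 47 endothelial-like cells, with 1646 CPM of Mt1 (1536 to 1762), 228.9 of Mt2 and 662.8 of Mt3 (594 to 738). The median cell had no Mt3, and 7 cells with 10 or more Mt3 UMIs held 94.59% of it. Without these 7 the level was 41.16 CPM (24.4 to 65.1), with 866.7 CPM of Mt1 and 100.6 of Mt2. The ependymal marker sum was 1037 CPM in the 47 cells, against 16.02 CPM in the endothelial-like cells of the non-traced library. Mt3 was also high in the 88 non-traced cells with astrocyte and endothelial markers, at 3770 CPM (3645 to 3899), with 5535 CPM of Mt1. These cells had 13.5 Mt3 UMIs per ependymal marker UMI (11.9 to 15.4), against 1.38 in ependymal-like cells. Among endothelial-like cells the 8 astrocyte markers ran from 0.510% of their ependymal level, for the water channel Aqp4 (0.738 CPM), through a median of 5.38% to 47.7%, for Slc7a10 (0.388 CPM), with the gap junction gene Gja1 at 48.21 CPM (13.3%), the receptor Fgfr3 at 9.731 CPM (28.7%) and none at 0. The part of astrocyte RNA in their Mt3 was not tested.

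Along the vessel, Mt1 and Mt2 were lower in arterial-like than in capillary-like and highest in venous-like endothelial cells. Endothelial-like cells of the non-traced library were divided again without the metallothioneins into 9 groups, and 8 of them were named by lists of segment markers. Mt1 was 852.4 CPM (844 to 861) in 6117 arterial-like, 1485 CPM (1478 to 1493) in 11225 capillary-like and 1935 CPM (1920 to 1950) in 2835 venous-like cells. Mt2 was 108.4 CPM (106 to 111), 203.9 CPM (201 to 207) and 293.5 CPM (288 to 300). Against the capillary-like cells, arterial-like cells differed by -0.80 in Mt1 and -0.91 in Mt2 on the log2 scale, and venous-like cells by 0.38 and 0.52. None of these passed 2-fold. Of all genes tested, 3.2% of 8387 did so between arterial-like and capillary-like and 2% of 8353 between venous-like and capillary-like cells. Mt3, at 18.55, 16.99 and 13.2 CPM, lay beside an ependymal marker sum of 14.89, 15.2 and 12.33 CPM in the 3 segments.

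The segments were not uniform. The highest Mt1 of the 9 groups was in the venous-like group led by Icam1 and Vcam1, the adhesion molecules of venules, at 1991 CPM (1975 to 2007), but the other venous-like group, of 114 cells led by Lrg1, Ackr1 and Selp, had only 492.6 CPM (454 to 534). The 3 capillary-like groups were at 1857 CPM (leading genes Hes1 and Hspa1a), 1374 CPM (Fam13a and Car4) and 1314 CPM (Plekhh2 and Lrp8). The arterial-like groups were at 1015 CPM (Pi16 and Fabp4), 948.9 CPM (Hey1 and Igfbp3) and 379.4 CPM (367 to 392; Cytl1, Mgp and Fbln5, genes of large arteries). Each arterial-like group was therefore below each capillary-like group. The unnamed group, led by pericyte genes such as Ndufa4l2 and Rgs5, was at 1184 CPM. No neighbours in this order overlapped in their counting intervals. Mt2 followed nearly the same order, from 302.9 CPM in the Icam1 group to 51.89 and 51.59 CPM in the Mgp and Ackr1 groups, which did not differ beyond their intervals, nor did the Hes1 and Fam13a groups at 227.1 and 227.3 CPM. With a finer division into 14 groups the arterial-like groups had 323.8 to 933.2 CPM of Mt1 and the capillary-like groups 1313 to 2160 CPM. The venous-like groups had 2089 CPM (2070 to 2108) and 577.4 CPM, so that the highest group was then a capillary-like one, at 2160 CPM (2137 to 2184).

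The share of cells with the transcript, which at this depth is largely set by the level itself, ran in nearly the same order. Thinned to 1000 UMIs, Mt1 was found in 68.5% of the cells of the Icam1 group, in 62.71%, 61.61% and 57.8% of the capillary-like groups, in 46.28% of the Hey1 group, in 35.77% of the Pi16 group, in 19.3% of the Ackr1 group and in 16.17% of the Mgp group. In the Pi16 group the median cell had 213.6 CPM, while the 90th percentile was 3104 CPM and the top 5% of cells held 40.84% of all Mt1 UMIs. In the finer division a Pi16 group of 549 cells was at 341.7 CPM. In the Mgp group the median cell had no Mt1 and the 90th percentile was 795.9 CPM. Whether the 12 immediate early genes, which are induced by cell dissociation among other things, had a part in these levels was not tested. Their summed level was 27192 CPM in the Icam1, 24396 in the Pi16, 23583 in the Hes1, 21443 in the Ackr1 and 18852 in the Plekhh2 group. In the Mgp, Hey1 and Fam13a groups it was 12753, 7017 and 4492 CPM.

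**Figure D4:**
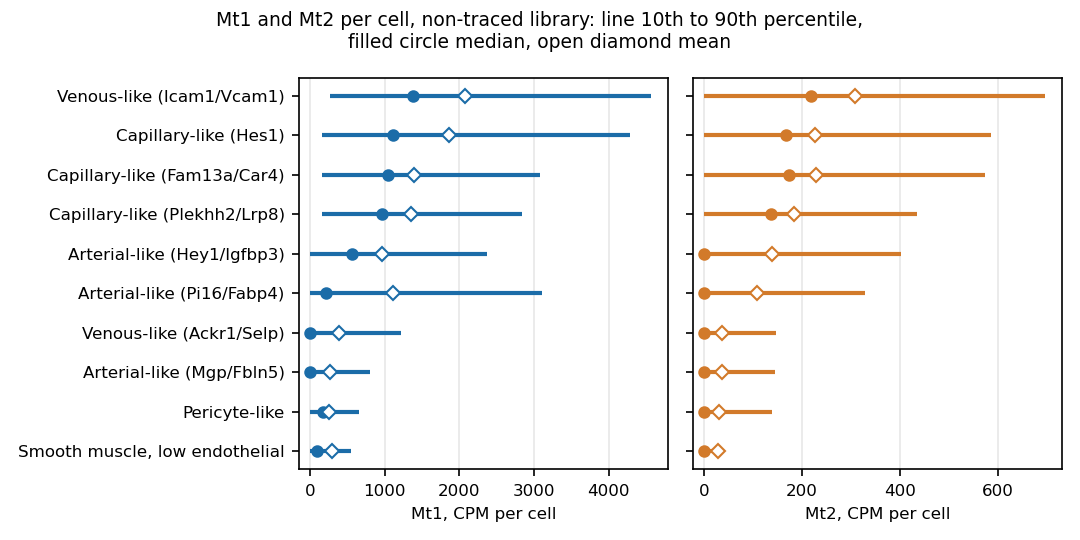
Mt1 (left) and Mt2 (right) in single cells of the endothelial and mural groups of the non-traced library, in CPM per cell. The line runs from the 10th to the 90th percentile, the filled circle is the median and the open diamond the mean. The median Mt1 goes from 1380 CPM in the Icam1 and Vcam1 group to 0 in the Ackr1 and Mgp groups.

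Of the named classes, pericyte-like cells had the lowest levels of Mt1 and Mt2. The 202 pericyte-like cells, which wrap capillaries and were named by markers such as Pdgfrb, Kcnj8 and Rgs5, had 288.2 CPM of Mt1 (253 to 327; 242 UMIs) and 33.35 CPM of Mt2 (22.2 to 48.2; 28 UMIs). These were 4.78 and 5.62 times lower than in endothelial-like cells (log2 differences of -2.26, -2.44 to -2.08, and -2.49, -3.03 to -1.96), and 15.2% of 9437 genes were lower by 2-fold or more in this comparison. Mt1 was found in 22.28% of the cells (16.7 to 28.7) at 1000 UMIs and Mt2 in 2.97%. Endothelial marker transcripts were still present in these cells, at 10.94% of their sum in endothelial-like cells. At the endothelial proportion they would have brought 151 CPM of Mt1, 52.39% of what was measured. In the 128 pericyte-like cells whose endothelial marker transcripts were under 10% of the endothelial-like median, a limit set after the values were seen and with 86 of the 202 cells between 5% and 20%, Mt1 was 206.3 CPM (168 to 251) and Mt2 18.57 CPM (8.49 to 35.2). Endothelial transcripts at 3.91% of the endothelial sum would account there for 54.05 CPM of Mt1. Haemoglobin transcripts took over 1% of the UMIs in 2 pericyte-like cells, and Mt1 was 295.2 CPM without them.

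Mt3 in pericyte-like cells was 50.03 CPM (36.1 to 67.6) on 42 UMIs. This is higher than in endothelial-like cells by 1.48 on the log2 scale (1.04 to 1.92), as 15.1% of genes were by 2-fold or more. Per cell it was 0.2079 UMIs against 0.1519, at median depths of 4010 and 6927 UMIs, and the part of depth was not tested. The Mt3 level in pericyte-like cells was 0.350% (0.253 to 0.474) of the ependymal level. The ependymal markers other than Rarres2 lay between 0% (0 UMIs, upper limit 1.31%), for Dnah12, and 0.933%, for Foxj1, with a median of 0.316%, on 0 to 4 UMIs each. Rarres2, the gene of the chemoattractant chemerin, stood apart at 33.7% (31.1 to 36.5). Mt3 was within the range of the markers here too, Rarres2 left out.

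No group had smooth muscle markers alone. The 332 cells with smooth muscle, pericyte and endothelial markers had 705.7 CPM of Mt1 (682 to 730), 75.41 of Mt2 and 103.2 of Mt3 (94.4 to 113), with endothelial marker transcripts at 55.09% of the endothelial-like sum. In 7 of them 10 or more Mt3 UMIs were counted, 88.71% of the Mt3, and the other 325 had 12.06 CPM (9.13 to 15.6). In 76 of them these transcripts were under the same limit, and 20 of the 332 lay between 5% and 20%. The 76 cells had 370.4 CPM of Mt1 (324 to 422), 45.49 of Mt2 and 191.7 of Mt3 (159 to 230). A single cell with 103 Mt3 UMIs held 87.29% of that Mt3. The other 75 cells had 289 CPM of Mt1 (248 to 335), 15.03 CPM of Mt2 (6.88 to 28.5; 9 UMIs) and 25.06 CPM of Mt3 (14 to 41.3), so that their Mt1 did not differ from that of the pericyte-like cells beyond the counting intervals. The 32 fibroblast-like cells had 852.4 CPM of Mt1 (764 to 948), 123.2 of Mt2 and 25.14 of Mt3 (10 UMIs).

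The proportion of Mt1 to Mt2 differed between the classes. Mt1 UMIs numbered 4.29 (4.22 to 4.36) per Mt2 UMI in non-traced and 4.59 (4.55 to 4.62) in traced ependymal-like cells, and 7.19 (7.11 to 7.27) in endothelial-like cells. Among the ependymal groups of full depth the ratio ran from 3.20 in the dividing group to 6.67 in the traced Ucma group, and among endothelial groups from 6.045 (Fam13a) to 10.01 (Pi16). The traced Ucma group thus lay above the lowest endothelial groups, so the ranges overlap. In pericyte-like cells, on 28 Mt2 UMIs, the ratio was 8.64 (5.83 to 13.3).

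**Figure D5:**
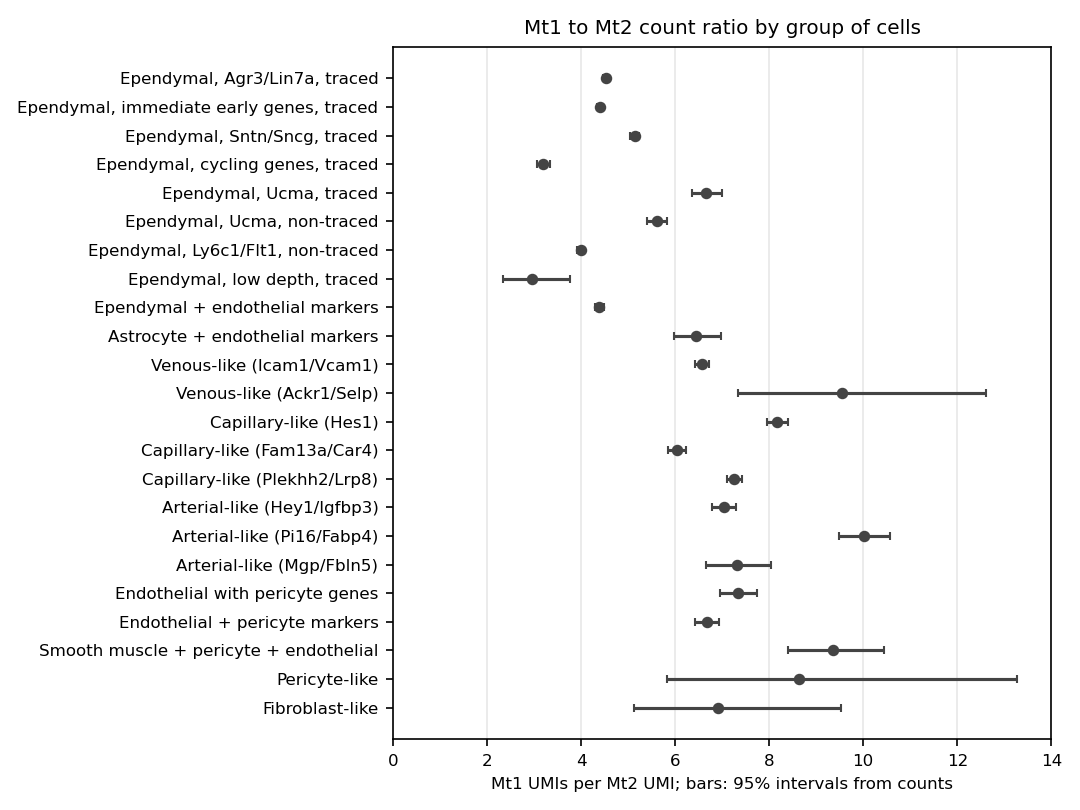
Number of Mt1 UMIs per Mt2 UMI in each group of cells, with 95% intervals from the counts. Ependymal groups lie between 2.96 and 6.67 and endothelial groups of the non-traced library between 6.045 and 10.01.

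From cell to cell, Mt1 and Mt2 went together and Mt3 less so. The values describe cells that share a library, with each cell of at least 5000 UMIs thinned to that number. Spearman's rho of Mt1 with Mt2 was 0.36 over 4489 traced ependymal-like, 0.49 over 978 non-traced ependymal-like and 0.52 over 17510 endothelial-like cells. Of Mt1 with Mt3 it was 0.18 and 0.20 in the ependymal-like cells, and of Mt2 with Mt3 0.22 and 0.28. In the dividing group, over 99 cells, Mt2 with Mt3 was -0.25, while Mt1 with Mt3 was 0.13. In endothelial-like cells it was 0.0019, at a mean of only 0.0868 Mt3 UMIs per cell, which is too sparse to show a relation. In the Ucma group the Mt1 and Mt2 values were 0.36 (traced) and 0.34 (non-traced), close to the other ependymal groups, which ran from 0.31 to 0.47.

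The genes whose level followed each member most closely were sought over 23 groups of cells with at least 200000 UMIs, by Pearson's r of log2(CPM + 1) among 7084 genes with at least 50 CPM in any group. These groups share libraries, and r mainly reflects the step from vascular to ependymal cells. For Mt1 the first was Mt2 (r = 0.991), followed by Msi2, Bbox1, Ccdc157 and Tmem178b (0.937 to 0.946), and for Mt2 it was Mt1, followed by the same 4 genes. For Mt3 they were Meis2, Scg5, Plekhb1, Rmst and 4932438H23Rik (0.994 to 0.996), and Mt1 and Mt2 stood at 0.883 and 0.887.

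Genes that handle zinc, copper and iron, the metals to which the family is tied, differed between the classes in both directions. Of 21 genes of this list tested between endothelial-like and ependymal-like cells, 9 were higher and 4 lower by 2-fold or more (19.6% and 27.1% of all genes), with a median log2 difference of 0.80 against -0.08 over all genes. The zinc importer Slc39a8 was at 120.7 against 5.569 CPM, the iron exporter ferroportin (Slc40a1) at 329.5 against 10.33 CPM and the transferrin receptor Tfrc at 318.3 against 31.33 CPM. Slc39a12, another zinc importer, was at 0.361 CPM in endothelial-like and 109.3 CPM in ependymal-like cells. Between arterial-like and capillary-like cells 1 of 19 was higher and 3 were lower (2.28% and 0.918% of all genes). The 3 lower were Slc39a8 (57.84 against 140.9 CPM), Slc40a1 (156.3 against 365.8 CPM) and Tfrc (131.7 against 366.4 CPM), and Tfrc was also 1 of the 6 capillary markers by which cells were named. The higher one was ceruloplasmin (Cp), a copper-bearing ferroxidase, at 301.2 against 146.2 CPM. None of the 19 passed 2-fold between venous-like and capillary-like cells, where 1.21% of all genes were higher and 0.79% lower by that size. In pericyte-like cells 2 of 21 were higher than in endothelial-like cells and 8 lower (15.1% and 15.2% of all genes), among them the zinc exporter Slc30a1, at 40.5 against 249.2 CPM. In the non-traced ependymal groups Slc30a1 was at 34.84 CPM (Ly6c1) and 59.82 CPM (Ucma). The part of metals in the metallothionein levels was not tested. In pericyte-like cells Slc30a10 was at 212 against 0.5655 CPM. Between traced and non-traced ependymal-like cells 0 of 19 were higher and 1 was lower (0.784% and 1.36% of all genes), Slc40a1, at 4.204 against 10.33 CPM.

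Lists of genes under other signals known to act on Mt1 and Mt2 were counted in the same way, and the part of these signals in the metallothionein levels was not tested. Glucocorticoid-responsive genes were higher in endothelial-like than in ependymal-like cells in 8 of 11 and lower in 1 (19.6% and 27.1% of all genes), with Sgk1 at 283.7 against 17.87 CPM and Nfkbia at 1434 against 106.1 CPM. In pericyte-like cells 0 of 11 were higher than in endothelial-like cells and 5 lower (15.1% and 15.2% of all genes), including Sgk1 at 23.82 CPM and Nfkbia at 220.3 CPM. None of the 11 passed 2-fold between arterial-like and capillary-like cells, and 1 did between venous-like and capillary-like cells (1.21% of all genes higher), Nfkbia, at 2554 against 1213 CPM. In traced against non-traced ependymal-like cells 2 of 10 were lower and 0 higher (1.36% and 0.784% of all genes). The 2 were Cebpd at 6.656 against 21.58 CPM and Sgk1 at 5.89 against 17.87 CPM. Against the Agr3 group 4 of 9 were higher in the immediate early and 2 of 8 in the Sntn group. In the traced Ucma group 3 of 10 were higher. In these comparisons 0 were lower, and 1.01%, 1.89% and 5.99% of all genes passed 2-fold in either direction.

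The STAT3 and acute-phase list had 3 of 8 genes higher and 2 lower in endothelial-like than in ependymal-like cells (19.6% and 27.1% of all genes), with the receptor Osmr at 65.28 against 1.044 CPM and the transcription factor Cebpb at 24.42 against 144.1 CPM. In venous-like against capillary-like cells 1 of 8 was higher (1.21% of all genes), Lcn2, at 43.61 against 6.41 CPM, which was also 1 of the 8 venous markers, and the median of the list was 0.62 against -0.02 over all genes. In pericyte-like against endothelial-like cells 1 of 8 was higher, Cebpb, at 272.8 against 24.42 CPM, and 3 were lower (15.1% and 15.2% of all genes). Against the traced Agr3 group 2 of 5 were higher in the immediate early and 1 of 5 in the Sntn group. In the traced Ucma group 3 of 6 were higher. In these comparisons 0 were lower, and 1.01%, 1.89% and 5.99% of all genes passed 2-fold in either direction. The list had no gene past 2-fold between arterial-like and capillary-like cells (7 tested) or between the 2 kinds of ependymal-like cells (5 tested). Genes of the oxidative stress response under NRF2 likewise had 0 past 2-fold in these 2 comparisons (10 and 8 tested). Between endothelial-like and ependymal-like cells 3 of 10 were higher and 2 lower (19.6% and 27.1% of all genes), with haem oxygenase (Hmox1) at 14.22 against 1.276 CPM and thioredoxin (Txn1) at 415 against 1073 CPM. In pericyte-like cells 3 of 10 were lower than in endothelial-like cells, including Hmox1 at 2.382 CPM and the glutathione synthesis gene Gclm at 45.26 against 155.9 CPM, and 0 were higher (15.2% and 15.1% of all genes).

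Immediate early genes were higher in endothelial-like than in ependymal-like cells in 8 of 12 and lower in 0 (19.6% and 27.1% of all genes), with Ier3 at 1484 against 86.56 CPM. In pericyte-like against endothelial-like cells 1 of 12 was higher, Egr1, at 1592 against 683.9 CPM, and 3 were lower (15.1% and 15.2% of all genes). Between venous-like and capillary-like cells 3 of 12 were higher (1.21% of all genes), Ier3 (3174 against 1243 CPM), Zfp36 (1864 against 777.4 CPM) and Egr1 (1196 against 541.5 CPM). None passed 2-fold between arterial-like and capillary-like cells, where Jun was at 2537 against 4700 CPM, or between traced and non-traced ependymal-like cells, where the median of the 12 was -0.52 against 0.03 over all genes.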

How the data were processed

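Both libraries were made with 10x 3′ chemistry from sorted LIVE CD45- CD133+ spinal cord cells. The deposited values are raw counts of UMIs per gene and cell, with cells already filtered by the authors (Cell Ranger 3.0.2 with STAR 2.5.1b on mm10 with the reporter sequence added, R 3.6.0 and Seurat 3, per the submitters' processing notes). The members and lists were chosen with earlier results of these data known.

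Cells of both libraries were integrated with Seurat 5.3.0 (2000 features, 20 components, resolution 0.8). The metallothioneins and reporter rows were left out of the features, although Mt3 is among the genes by which the study named ependymal cells. The cells of a cluster were named in each library from fixed markers. A marker was found if at least 50% of cells had it, a class needed 3, and a cluster with 70% of another class's markers was called mixed. Ependymal-like and endothelial-like cells were divided again at resolution 0.5, and endothelial groups took the segment whose markers deviated most, by at least 0.4 on the log2 scale, a limit set after the values were seen. Scrublet (scanpy 1.11.5) called 2170 of 25411 non-traced cells doublets (8.54%) and 0 of 4825 traced cells, where it has not worked, and called cells were kept. The rates expected from the numbers of cells were 20.33% and 3.86%, so doublets may remain uncalled. Whether the cells with markers of several classes were doublets was not tested.

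Counts were summed per class and given as CPM with exact Poisson intervals. Shares were thinned to 1000 UMIs per cell, below which no cell lay, with Clopper-Pearson intervals. Differences are of log2(CPM + 1), and genes with at least 10 CPM in either sum were compared with a 2-fold size. With 1 library per group no p-value was computed. For each list, at most 4 genes per comparison were named, those with the largest absolute differences. Only the 2-fold counts and the intervals of differences were tried on simulated data, drawn as Poisson counts. Clustering, naming and thinning were not tried in this way. Python 3.11.15, numpy 2.4.6, scipy 1.17.1, pandas 2.3.3, R 4.3.3 and edgeR 4.0.16 (for TMM factors only) were used.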

Additional observations from a re-analysis of the deposited data

How the results depend on the processing

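Each group is 1 library, so the spread between animals is unknown, the sort sets which cells are present, and traced and non-traced cells cannot be told apart from their libraries. No paired analysis was possible because each group holds 1 library. Depth limits Mt2 and Mt3 in mural cells: the 202 pericyte-like cells hold 28 and 42 UMIs of them, and the 76 cells with smooth muscle markers and low endothelial transcripts 28 and 118, or 9 and 15 without 1 cell. Differences below are log2, and the cause of a shift was not tested. The 75 recomputed class differences kept their direction with 2 exceptions.

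Naming clusters over both libraries together turned traced minus non-traced to 0.0256 for Mt1 and 0.0772 for Mt3 and gave -0.0862 for Mt2, endothelial minus ependymal values of -2.50, -3.22 and -9.37 for Mt1, Mt2 and Mt3, and 0.143% for Mt3 in endothelial-like cells as a share of its ependymal level. Marker gates per cell named only 291 non-traced but 4448 traced cells ependymal-like, against 1158 and 4740 in the main naming. They gave -0.17, -0.32 and -0.15 for traced minus non-traced, -2.61, -3.43 and -8.99 for endothelial minus ependymal, and 0.190%. TMM factors, which moved the median of all genes by 0.51 between endothelial-like and ependymal-like cells and by -0.18 between pericyte-like and endothelial-like cells, gave -0.11, -0.21 and -0.0708, and -2.13, -2.87 and -9.11. A stricter filter on cells, by genes detected and mitochondrial share, kept 330 of 1158 non-traced and 3774 of 4740 traced ependymal-like cells. It gave -0.0538 for Mt3 in traced minus non-traced, and -2.67 and -3.42 for Mt1 and Mt2 in endothelial minus ependymal. Means over cells gave -0.10 for Mt3 in the first, -2.63 for Mt1 and -9.49 for Mt3 in the second, and -2.47 for Mt1 in pericyte minus endothelial. A pseudocount of 10 CPM gave -3.32 for Mt2 and -9.03 for Mt3 in endothelial minus ependymal. Without integration Mt3 was -0.0832 in traced minus non-traced. Leaving out called doublets gave -9.68 for Mt3 and 0.115%.

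Of alternatives added after seeing the data, the Ucma group alone gave -0.22 for Mt1 and -0.46 for Mt2, endothelial-like cells without an ependymal marker UMI -9.76 and 0.109% for Mt3, and pericyte-like cells with low endothelial transcripts -2.74 for Mt1 and -3.30 for Mt2. With no filter on low counts, 588 genes instead of 205 passed 2-fold between traced and non-traced cells. At resolution 1.0 the highest endothelial group exceeded the lowest 6.67 times in Mt1 and 8.16 times in Mt2, instead of 5.25 and 5.87 times, over groups with a median of at least 2500 UMIs. The pericyte comparison was not run without integration, which gave no pericyte-like class, or with marker gates, which left too few cells.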
